A study of Homo sapiens with 6 samples.

Results

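The TMED (p24) genes encode cargo receptors of the early secretory pathway, and 9 of them, of 62700 genes in the deposited gene table, were described in TCam-2 cells, an established line of human seminoma-type testicular cancer. The members were chosen by family name around TMED7, which had been selected on its own values: its gene count rose in RBMXL3 libraries far more than its summed transcript TPM (a length-corrected transcript abundance, scaled to the same total in each library). The counts and TPM of TMED7 are therefore given as a description, with no test, and tests cover the other 8 members, TMED1, TMED2, TMED3, TMED4, TMED5, TMED8, TMED9 and TMED10. Polyadenylated RNA was sequenced in 2 libraries each of WT cells, which were not transduced, of GFP cells, which overexpressed FLAG-tagged GFP, and of RBMXL3 cells, which overexpressed FLAG-tagged RBMXL3. RBMXL3 is a relative of RBMX, an RNA-binding protein that acts in splicing, and the study asked which genes and splice forms differ when it is overexpressed. All cells shared the TCam-2 background, grown as 1 line, and the labels do not say whether the 2 libraries of a group came from separate cultures. The p-values below therefore measure only the spread between these libraries, which may be technical.

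TMED proteins span the membrane once, with a luminal GOLD domain and a short cytoplasmic tail that binds vesicle coats. They cycle between the endoplasmic reticulum and the Golgi in COPII and COPI vesicles, carry GPI-anchored proteins and other secreted cargo, and work as complexes that combine the alpha, beta, gamma and delta classes. TMED4 and TMED9 are alpha members, TMED2 is the beta member, TMED1, TMED3, TMED5 and TMED7 are gamma members, and TMED10 is the delta member. TMED8 carries a GOLD domain and belongs to the set by its name.

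TMED7 lies on the minus strand of chromosome 5, at chr5:115613508-115632992 in GENCODE 29 (GRCh38), and a read-through gene, TMED7-TICAM2, starts in the same exons and runs on into TICAM2, which encodes an adaptor of Toll-like receptor 4. Of the exon length of TMED7, 24.01% lay in exons of TMED7-TICAM2 on the same strand, and the value was 0% for each of the other 8 members and any same-strand gene. The sequences below show where the shared message ends. Lower case marks the last 48 shared coding bases (chr5:115616318-115616365, minus strand), and capitals mark the 48 coding bases that follow in each transcript. The capitals lie at chr5:115616270-115616317 in TMED7-201, directly after the shared bases, and at chr5:115581150-115581197, in a downstream exon, in TMED7-TICAM2-201.
TMED7-201: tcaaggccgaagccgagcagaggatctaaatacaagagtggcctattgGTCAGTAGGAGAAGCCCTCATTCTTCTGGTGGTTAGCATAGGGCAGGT
TMED7-TICAM2-201: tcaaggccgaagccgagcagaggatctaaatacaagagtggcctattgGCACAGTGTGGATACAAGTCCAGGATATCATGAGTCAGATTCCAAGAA
The shared stretch was 935 bases long, which is 24.9% of the 3757 bases of TMED7-201 and 26.8% of the 3491 bases of TMED7-TICAM2-201. A read inside that stretch matches both genes, while a read in the remainder of TMED7-201 matches TMED7 without the read-through gene.

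The gene table held normalised read counts, that is whole reads divided by 1 size factor per library, with 17685680 to 29318007 reads recovered per library. The lowest depths were those of the 2 RBMXL3 libraries. RBMXL3 itself had 0 reads in each of the 4 control libraries, and 84 and 68 reads in the RBMXL3 libraries. A library with 0 reads of a gene may hold up to 3, which is 2.52 to 3.86 normalised reads by library, and such limits cover counting error only. The seminoma and germ cell markers POU5F1, SOX17, PRDM1, TFAP2C, NANOG, KIT, PDPN and ALPL each had at least 1411 normalised reads in every library, and SOX2 had 11.7 to 34.2.

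The total of the receptors overlapped between all groups in counts. In TPM it overlapped between GFP and RBMXL3, and WT stood above both. Their summed normalised read counts were 37951 and 36977 in WT, 34500 and 37284 with GFP, and 37261 and 36446 with RBMXL3, so the ranges of the 3 groups overlapped. Their total TPM was 1237 and 1213 in WT, 1165 and 1109 with GFP, and 1148 and 1175 with RBMXL3, with both WT libraries above the other 4. On the per-length scale, the order of mean TPM was the same in every group: TMED2, TMED9, TMED10, TMED4, TMED5, TMED3, TMED1, TMED7, TMED8. That order counts every annotated form of a gene. Neighbours in that order overlapped in range for TMED2 and TMED9 in GFP and for TMED5 and TMED3 in GFP and in RBMXL3, and were apart elsewhere.

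**Figure D1:**
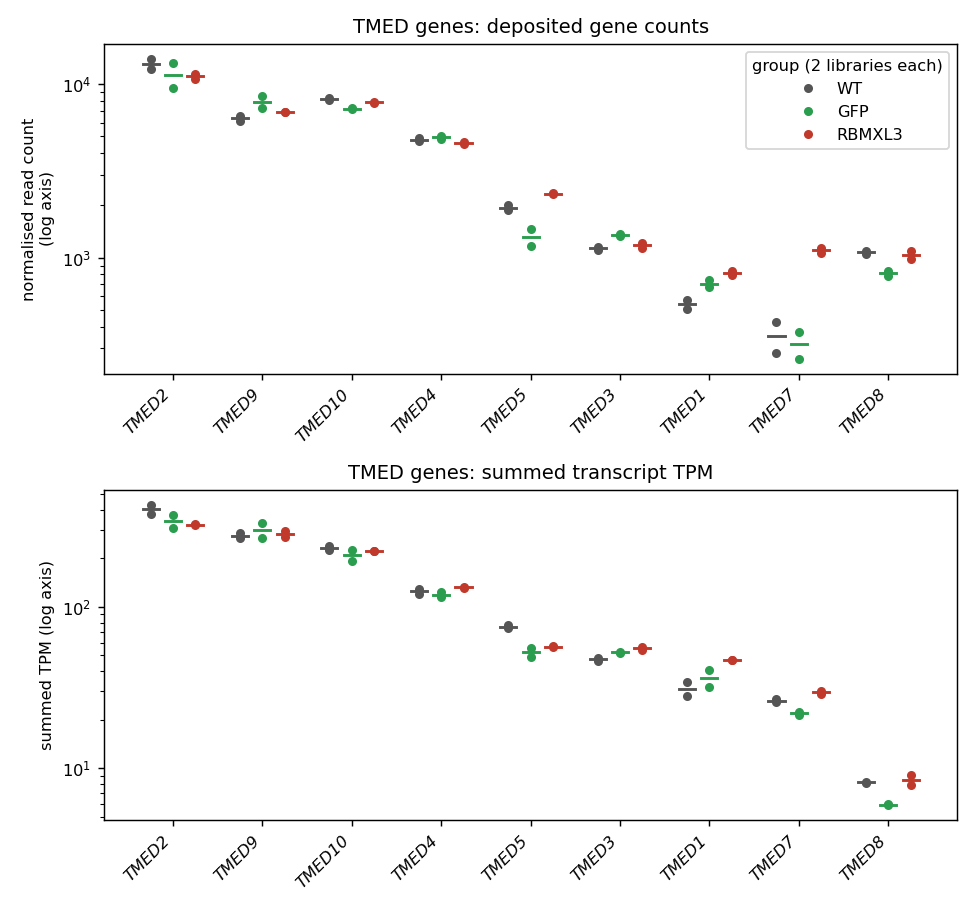
Normalised read counts (upper panel) and summed TPM (lower panel) of the 9 TMED genes on log axes, with 1 point per library and a line at the group mean (n = 2). TMED7 counts sit at 1067 and 1130 in RBMXL3 against 261 to 426 in the 4 control libraries, while its TPM spans 21.5 to 30.1 over all 6 libraries.

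TMED7, a gamma receptor, had 284 and 426 normalised reads in WT, 261 and 373 with GFP, and 1067 and 1130 with RBMXL3. Both RBMXL3 libraries stood above all 4 controls, with group means of 1099 ± 44.5 with RBMXL3, 317 ± 79.4 with GFP and 355 ± 100.8 in WT (SD, n = 2). The raw reads behind these values were 335, 508, 282, 352, 829 and 1057 in the same order, so the highest raw counts came from the 2 shallowest libraries. The log2 difference in counts was 1.74 against GFP and 1.59 against WT, the 7th and the 19th highest of 14292 genes. TMED7 was selected on these values, so its high ranks follow from the selection. Leaving out 1 library at a time gave 1.4999 to 1.98 and 1.32 to 1.87.

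Summed TPM of TMED7 was 25.6 and 27.0 in WT, 21.5 and 22.3 with GFP, and 28.8 and 30.1 with RBMXL3. The RBMXL3 libraries were again the highest, but the log2 difference in TPM was 0.41 against GFP and 0.16 against WT. The median of all genes in the same TPM comparisons was 0.13 and 0.03. The read-through gene was low in both tables. TMED7-TICAM2 had a TPM of 2.25 and 1.90 TPM in WT, 1.03 and 0.931 with GFP, and 1.23 and 1.33 with RBMXL3. In the gene table it had 1, 2, 3, 0, 0 and 0 reads, and TICAM2 had 0, 1, 0, 0, 1 and 0. Neither thus had more than 3 observed reads in any of the 6 libraries. Of exon length, 96.6% of TMED7-TICAM2 and 82.2% of TICAM2 is shared with other genes on the same strand. How shared reads were counted is not given, so few reads in the gene table need not mean little RNA. With all 3 genes of the locus added, TPM was 27.8 and 28.9 in WT, 22.5 and 23.5 with GFP, and 30.1 and 31.5 with RBMXL3, in which the RBMXL3 libraries were the highest by a small margin.

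To set the 2 tables against each other, the normalised reads of a gene were divided by the reads that its TPM implies (TPM times annotated transcript length, summed), scaled to a median of 1 over 12926 genes in each library. This count-to-TPM ratio was 0.196 and 0.276 in WT, 0.188 and 0.253 with GFP, and 0.647 and 0.679 with RBMXL3 for TMED7. Among all genes TMED7 was thus at percentile 1.90 to 2.53 in controls and at percentile 7.07 and 7.87 in RBMXL3. Low ratios went with shared exons: the 390 genes with at least 20% of exon length shared on their strand had a median ratio of 0.330 to 0.397 by library, against 1.011 to 1.018 for the 10993 genes with no shared exon. The log2 gap between counts and TPM differed between RBMXL3 and GFP by a median of -0.14 in the genes with at least 20% shared and by -0.16 in the genes with none, against 1.33 for TMED7. Against WT the medians were -0.03 and -0.06, and TMED7 had 1.43. The value of TMED7 was exceeded against GFP by 4 of the 390 genes (1.03%) and by 15 of the 10993 (0.136%), and against WT by 2 (0.513%) and 12 (0.109%). Because TMED7 was selected for this gap, these shares describe its place and are no test. Which part of the TMED7 difference belongs to the counting of shared reads was not tested.

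**Figure D2:**
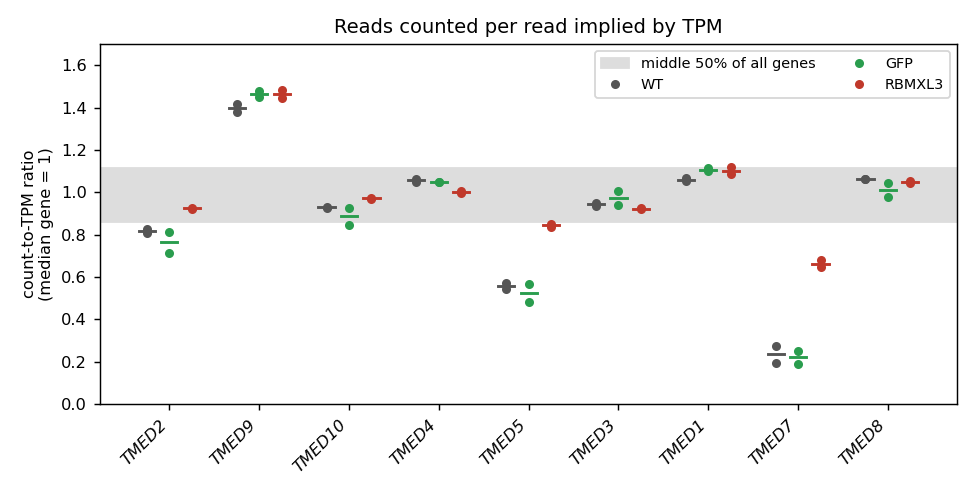
Count-to-TPM ratio of the 9 TMED genes by library, with lines at group means (n = 2) and a grey band for the middle 50% of all genes (mean of the library quartiles). TMED7 lies below the band in every library and higher in RBMXL3 (0.647 and 0.679) than in the controls (0.188 to 0.276), and TMED5 shows the same order from 0.481 to 0.849.

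TMED5, another gamma receptor and one with no shared exon on its strand, also had more counts for its TPM in RBMXL3. Its normalised reads were 1879 and 1998 in WT, 1173 and 1456 with GFP, and 2350 and 2324 with RBMXL3, with no overlap between any 2 groups. Counts of TMED5 rose in RBMXL3 against GFP by 0.83 on the log2 scale (SE 0.11, limma adjusted p = 0.000698) and fell in GFP against WT by 0.56 (SE 0.11, limma adjusted p = 0.0247). Those comparisons share the GFP libraries. The RBMXL3 against WT difference was 0.27 (SE 0.11, limma adjusted p = 0.0889), which missed the threshold of 0.05. The first call held under all 13 alternatives, at 0.67 to 0.98 (adjusted p of 4.4e-08 to 0.0292), and the GFP against WT call was lost without either WT library, without either RBMXL3 library and with no filter (lowest and highest value over single left-out libraries, -0.71 and -0.41). In bulk RNA of 1 line, a change in the share of cells that express a gene and a change in RNA per cell cannot be told apart.

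Summed TPM of TMED5 followed another order: 74.0 and 76.9 in WT, 56.0 and 49.2 with GFP, and 56.0 and 57.2 with RBMXL3. GFP 1 and RBMXL3 1 were both at 56.0, and both WT libraries stood above the other 4. TPM of TMED5 fell in RBMXL3 against WT by 0.41 on the log2 scale (SE 0.10, limma adjusted p = 0.0450), a call that was lost without either WT or either RBMXL3 library, with values of -0.44 to -0.38 when 1 library was left out. Against GFP the log2 difference in TPM was 0.11 (SE 0.10, limma adjusted p = 0.512). The count-to-TPM ratio, which already weights each transcript by its length, was 0.543 and 0.571 in WT, 0.481 and 0.566 with GFP, and 0.838 and 0.849 with RBMXL3. The log2 gap between counts and TPM rose by 0.72 against GFP (SE 0.16, limma adjusted p = 0.0442), and the difference against WT was 0.68 (SE 0.16, limma adjusted p = 0.162). The gap call was lost on leaving out any library but GFP 2 (0.48 to 0.96), and after quantile normalization. TMED5 lies at chr1:93149742-93180728 on the minus strand, and 7.16% of its exon length is opposite to CCDC18, which had 219 to 299.7 normalised reads. Exons of opposite-strand genes also covered 7.47% of the exon length of TMED2 and 5.78% of that of TMED7. The strand setting of the counting is not given in the sources used here.

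**Figure D3:**
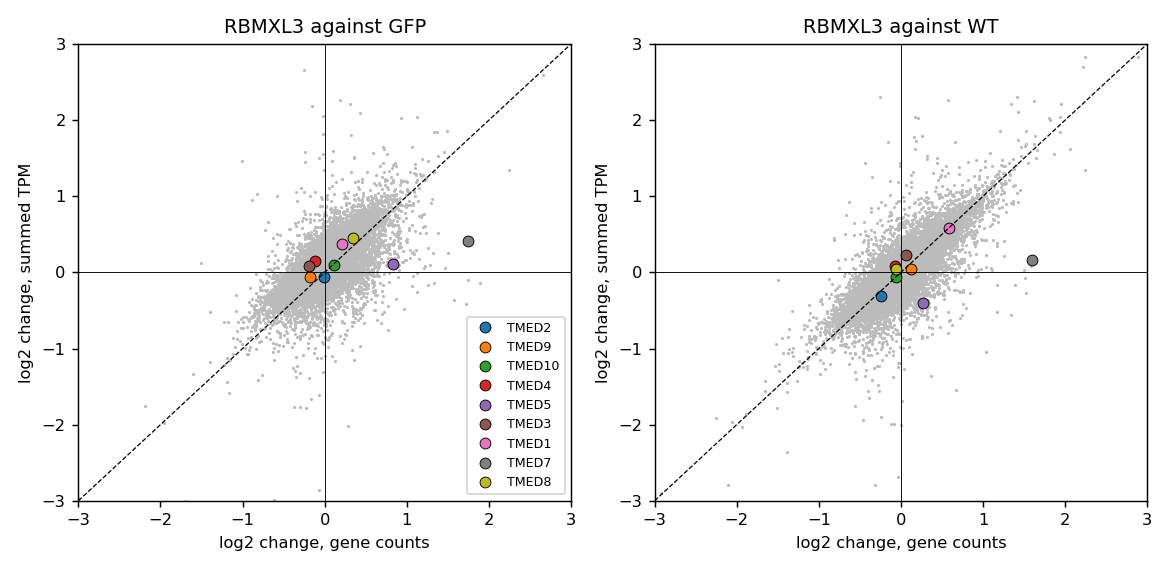
Log2 change in gene counts (horizontal) against log2 change in summed TPM (vertical) for 12926 genes in grey and the 9 TMED genes in colour, for RBMXL3 against GFP (left) and against WT (right). The dashed line marks equal change, and 8 and 6 genes beyond 3 on an axis are not drawn. TMED7 (1.74 and 0.41 against GFP) and TMED5 (0.83 and 0.11) lie to the right of the line, and the other 7 lie nearer to it.

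TMED1, a gamma receptor, rose against WT in counts. It had 505 and 573 normalised reads in WT, 742 and 674 with GFP, and 798 and 841 with RBMXL3, so both transduced groups were above WT and RBMXL3 was highest. The log2 difference between RBMXL3 and WT was 0.59 (SE 0.11, limma adjusted p = 0.00271) and held under all 13 alternatives, at 0.50 to 0.67 (adjusted p of 0.000291 to 0.0498). Its TPM was 27.9 and 34.4 in WT, 40.7 and 31.9 with GFP, and 46.7 and 46.8 with RBMXL3, a log2 difference of 0.58 against WT (SE 0.15, limma adjusted p = 0.0542). Counts and TPM of TMED1 thus gave nearly the same size of difference, and the TPM difference passed the threshold under 5 of 12 alternatives. Of the exon length of TMED1 (chr19:10832438-10836318), 51.3% is opposite to DNM2, a dynamin gene with 4457 to 5576 normalised reads, and reads from the 2 genes cannot be told apart if strand was not used.

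TMED3, the remaining gamma receptor, had 1146 and 1112 normalised reads in WT, 1362 and 1323 with GFP, and 1217 and 1135 with RBMXL3, highest in GFP. Its TPM was 48.2 and 46.3 in WT, 51.7 and 52.7 with GFP, and 56.4 and 54.2 with RBMXL3, highest in RBMXL3. Neither its counts nor its TPM passed the threshold in any comparison.

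TMED8 was the scarcest member per length. It had 1096 and 1054 normalised reads in WT, 780 and 842 with GFP, and 977 and 1089 with RBMXL3, lowest in GFP. Counts of TMED8 rose in RBMXL3 against GFP by 0.34 (SE 0.11, limma adjusted p = 0.0387), and its log2 difference in GFP against WT was -0.40 (SE 0.11, limma adjusted p = 0.0565). The RBMXL3 call was lost on leaving out any library but GFP 2 (0.26 to 0.41). TPM of TMED8 was also lowest in GFP, with 8.19 and 8.10 in WT, 5.96 and 5.89 with GFP, and 7.84 and 9.10 with RBMXL3, with a log2 difference of 0.45 against GFP (SE 0.13, limma adjusted p = 0.0773).

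The alpha, beta and delta receptors gave no call in counts or TPM. TMED2, the beta subunit, had 13946 and 12287 normalised reads in WT, 9441 and 13252 with GFP, and 11482 and 10703 with RBMXL3, and the spread within GFP covered both RBMXL3 values. TMED10, the delta subunit, had 8301 and 8069 in WT, 7208 and 7233 with GFP, and 7882 and 7788 with RBMXL3, lowest in GFP by a gap larger than the spread within groups. The log2 difference in counts of TMED10 between RBMXL3 and GFP was 0.12 (SE 0.09, limma adjusted p = 0.398). TMED9, an alpha receptor, had 6104 and 6579 in WT, 8493 and 7277 with GFP, and 6883 and 6944 with RBMXL3, highest in GFP. TMED4, the other alpha receptor, ranged from 4493 in RBMXL3 to 5041 in GFP. The count-to-TPM ratio of TMED9 was 1.38 to 1.48 over the 6 libraries, above that of most genes, and those of TMED4, TMED1, TMED8 and TMED3 lay between 0.920 and 1.12. TMED2 had ratios of 0.715 to 0.826 in controls and 0.927 and 0.921 in RBMXL3, and TMED10 had 0.848 to 0.932 in controls and 0.975 and 0.969 in RBMXL3, so for both the RBMXL3 libraries were again above all controls. The lower quartile of the ratio over all genes moved likewise, from 0.817 to 0.854 in controls to 0.895 and 0.901 in RBMXL3. Low ratios were thus higher table-wide. Both genes also stood higher among all genes of the same library. TMED2 was at percentile 15.92 to 21.64 in controls and at 30.97 and 28.97 in RBMXL3. TMED10 was at percentile 28.41 to 37.18 in controls and at 42.89 and 40.61 in RBMXL3. Whether either rise exceeded the table-wide shift was not tested.

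Calls among the 8 members were read against the whole table. In counts, 2 of 8 members were called against GFP, where 20.9% of 14292 genes were called (10.5% higher and 10.4% lower, and 19.9% with edgeR). Against WT, 1 of 8 was called, where 29.9% of genes were called (14.6% higher and 15.3% lower, and 29.1% with edgeR). In GFP against WT, 1 of 8 was called, where 3.67% of genes were called (3.32% with edgeR). In summed TPM, limma called 0 of 8 against GFP, with 2 at an unadjusted p under 0.05, where 6.93% of 14262 genes were called, and 1 of 8 against WT, where 11.5% were called. In GFP against WT limma called 0 of 8 in TPM, with 2 at an unadjusted p under 0.05, and 0% of all genes, with 2214 genes at an unadjusted p under 0.05. The members' counts of calls in the 2 comparisons with RBMXL3 lie near or under these shares of all genes. The median log2 change of the 8 members against GFP was 0.05 in counts, beside 0.00087 for all genes, and 0.10 in TPM, beside 0.13.

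For the gap between counts and TPM, 3 of 8 members were called against GFP: TMED5 rose, and TMED3 and TMED4 fell by 0.27 each (SE 0.06 each, limma adjusted p = 0.0433 and 0.0434). In that comparison 21.1% of 12926 genes were called, 302 higher and 2427 lower, and the median gap of all genes was -0.16. The lowest limma adjusted p over all these genes was 0.0430, so every call lay just under the threshold of 0.05. Calls of the whole table also fell on leaving out single libraries, so that loss was not particular to the members. After quantile normalization of each table the split became 95 higher and 22 lower, and 0 of 8 members were called. Relative to the all-gene median, the TMED3 and TMED4 gaps were small, and those calls were lost on leaving out any of the 6 libraries (-0.30 to -0.24), whereas the TMED5 gap lay on the other side of it. Against WT limma called 0 of 8 gaps, with 3 at an unadjusted p under 0.05, where 0.00774% of genes were called. In GFP against WT limma called 0 of 8 gaps, with 1 at an unadjusted p under 0.05, and 0% of all genes, with 2374 at an unadjusted p under 0.05.

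Splice forms of the receptors differed in which transcripts carried the TPM. A transcript's TPM is an estimate by Salmon that splits reads shared between forms of a gene. TMED7-201 carried nearly all TMED7 TPM, with 23.4 and 25.9 in WT, 21.5 and 22.3 with GFP, and 28.8 and 30.1 with RBMXL3. TMED7-202, a non-coding form, had 2.20 and 1.09 in WT and was listed at 0 in the other 4 libraries, and TMED7-203 was listed at 0 in all 6. TMED7-TICAM2-201 ranged from 0.931 to 1.69, and the other 2 read-through forms stayed under 0.710.

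TMED5 showed the clearest difference in make-up. TMED5-203, a form of 3847 bases annotated as a target of nonsense-mediated decay (NMD), the pathway that degrades messages with an early stop codon, had 37.3 and 40.4 TPM in WT, 25.2 and 25.3 with GFP, and 37.6 and 37.4 with RBMXL3. TMED5-201, a coding form of 750 bases, had 23.3 and 21.2 in WT, 16.8 and 9.78 with GFP, and 8.56 and 7.74 with RBMXL3. The NMD form thus made up 67.1% and 65.4% of TMED5 TPM in RBMXL3, above the 45.1% to 52.6% of all 4 controls. TMED5-202 had 2.995 to 7.32 TPM and TMED5-204 had 5.59 to 10.96, with RBMXL3 inside the range of the controls or close to it.

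With protein-coding transcripts alone, TMED5 TPM was 36.6 and 36.3 in WT, 30.7 and 23.9 with GFP, and 18.3 and 19.8 with RBMXL3. This sum was chosen after the data were seen. Coding TPM of TMED5 fell in RBMXL3 against WT by 0.90 on the log2 scale (SE 0.13, limma adjusted p = 0.0112), while the gene count of TMED5 had a difference of 0.27 in the other direction. Against GFP the difference was -0.49 (SE 0.13, limma adjusted p = 0.0576), opposite in sign to the called rise in counts of TMED5. Against WT 3 of 8 members were called on coding TPM, namely TMED5 lower and TMED1 and TMED9 higher, where 16.1% of 12076 genes were called. Against GFP limma called 0 of 8 on coding TPM, with 4 at an unadjusted p under 0.05, where 11.7% of genes were called. In GFP against WT it called 0 of 8, with 3 at an unadjusted p under 0.05, and 0% of all genes, with 2219 at an unadjusted p under 0.05.

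TMED9 had 2 main forms, the coding TMED9-201 and TMED9-206, a short form with a retained intron. TMED9-201 had 96.3 and 106 TPM in WT, 113 and 112 with GFP, and 135 and 138 with RBMXL3, and its share of TMED9 TPM was 49.3% and 46.6% in RBMXL3 against 34.0% to 41.9% in controls. TMED9-206 had 169 and 180 in WT, 218 and 155 with GFP, and 138 and 158 with RBMXL3. Coding TPM of TMED9 rose against WT by 0.43 (SE 0.08, limma adjusted p = 0.0228), while the log2 difference in its counts was 0.13 (SE 0.10, limma adjusted p = 0.385).

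The short forms of TMED10 differed between libraries of the same group. Its retained-intron form TMED10-205 had 55.1 and 29.7 TPM in WT and 57.9 in GFP 1, and was listed at 0 in GFP 2 and in both RBMXL3 libraries. TMED10-206 ran the other way, with 40.0 and 49.2 in WT, 15.4 in GFP 1, 69.7 in GFP 2, and 59.8 and 59.5 in RBMXL3. TMED10-203 ranged from 32.7 to 54.6, and TMED10-204 reached 9.03 in GFP 1 and stayed at or under 1.52 elsewhere. The coding TMED10-201 was lowest in both GFP libraries, with 102 and 108 in WT, 88.3 and 87.7 with GFP, and 108 and 112 with RBMXL3.

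Among the remaining members, TMED2-201 (297 to 412 TPM), TMED3-201 (45.2 to 54.8), TMED4-203 (103 to 122) and TMED8-201 (5.89 to 9.10) carried most of the TPM of their genes in every library. The coding TMED1-201 had 15.9 and 16.9 TPM in WT, 17.4 and 20.04 with GFP, and 26.2 and 29.05 with RBMXL3. TMED1-204 (5.72 to 12.4), TMED1-207 (5.24 to 10.96), TMED2-202 (8.87 to 18.8), TMED4-201 (5.22 to 7.14) and TMED4-205 (3.10 to 5.90) were minor forms.

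Over the 25 transcripts of the 8 members that were tested, limma called 0 in each comparison. Against GFP 5 had an unadjusted p under 0.05 and the lowest adjusted p was 0.0830, for TMED5-203, where 1.25% of 44693 transcripts were called. Against WT 6 had an unadjusted p under 0.05 and the lowest adjusted p was 0.0827, for TMED1-201, where 1.53% were called. In GFP against WT 5 had an unadjusted p under 0.05, and 0% of all transcripts were called, with 3562 at an unadjusted p under 0.05. With a mean TPM of at least 5 as the filter, TMED5-203 was called higher against GFP (0.55, SE 0.09, limma adjusted p = 0.0467) and TMED1-201 higher against WT (0.71, SE 0.12, limma adjusted p = 0.0464).

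**Figure D4:**
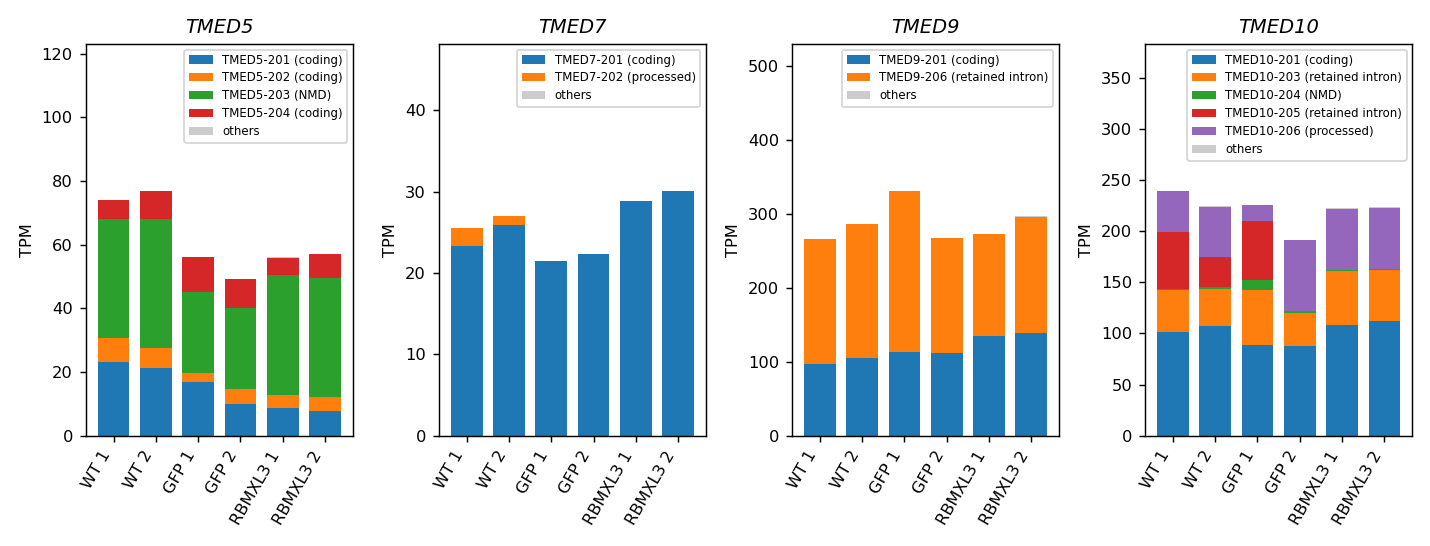
TPM of the transcripts of TMED5, TMED7, TMED9 and TMED10 in each of the 6 libraries, stacked so that the bar height is the summed TPM of the gene, with forms that never reached 1 TPM added as others. The NMD form TMED5-203 takes 67.1% and 65.4% of the bar in RBMXL3, and TMED10-205 is present in WT 1, WT 2 and GFP 1 and at 0 in the other 3 libraries.

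Within the gamma class the balance between receptors differed by group. The class total was 176 and 185 TPM in WT, 170 and 156 with GFP, and 188 with each RBMXL3 library. TMED5 took 42.1% and 41.7% of it in WT, 33.0% and 31.5% with GFP, and 29.8% and 30.4% with RBMXL3, with WT above both transduced groups. TMED1 took 15.9% and 18.6% in WT, 23.9% and 20.4% with GFP, and 24.8% with each RBMXL3 library. TMED7 took 12.6% to 16.0% in all 6 libraries. In the alpha class TMED9 took 67.5% to 72.9% of TPM and TMED4 the remainder. All these shares count every annotated form. In protein-coding TPM alone, TMED4 had 118 and 126 in WT, 121 and 114 with GFP, and 129 and 130 with RBMXL3. TMED9 had 96.3 and 106, 113 and 112, and 135 and 138 in the same order, above TMED4 in RBMXL3 only. Protein-coding TPM of TMED5 was 18.3 to 36.6 over the 6 libraries, under the 45.7 to 55.1 of TMED3.

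**Figure D5:**
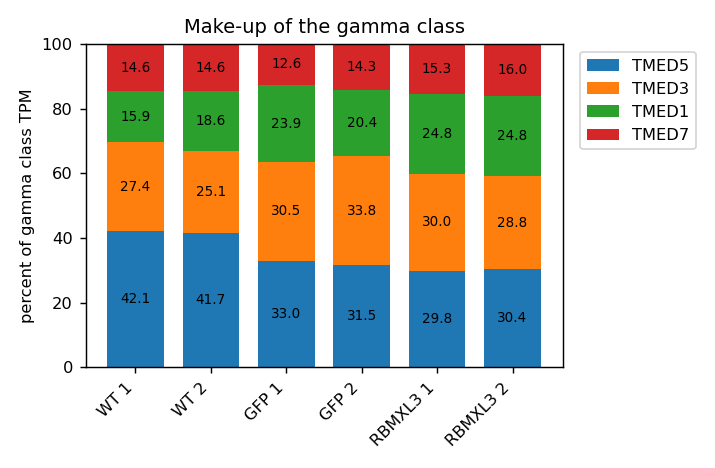
Percent of the summed TPM of the gamma class contributed by TMED5, TMED3, TMED1 and TMED7 in each library, with the value printed in each segment. All annotated forms are counted, also those not annotated as protein-coding. TMED5 falls from 42.1% and 41.7% in WT to 29.8% and 30.4% in RBMXL3, and TMED1 reaches 24.8% in both RBMXL3 libraries.

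The genes whose counts over the 6 libraries were most like those of TMED7, by Euclidean distance of log2 values centred on the 4 controls, were LDHB (distance 0.27), IER3IP1 (0.36), BMI1 (0.43), ENSG00000289194 (0.47) and ZNRF2 (0.53). LDHB, a lactate dehydrogenase subunit, had 48.3 and 92.3 normalised reads in WT, 47.1 and 85.8 with GFP, and 248 and 230 with RBMXL3. On its strand LDHB shares 33.4% of its exon length with AC010197.2, and BMI1, a Polycomb protein gene, shares 23.3% with a read-through gene, COMMD3-BMI1. IER3IP1 shares 10.96% and ZNRF2 8.60%, and ENSG00000289194 has no value. For the gap between counts and TPM, the nearest were PPP2CA (0.22), SYNCRIP (0.23), DLEU2 (0.23), NBEAL1 (0.29) and PPM1B (0.32). PPP2CA, a catalytic subunit of protein phosphatase PP2A, shares 9.22% of its exon length on its strand, and SYNCRIP, an RNA-binding protein gene, shares 4.18%. PPM1B, another phosphatase gene, shares 21.8% with AC013717.1, NBEAL1 3.04% and DLEU2 0.255%.

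The machinery with which TMED receptors travel was read against the shares of all genes called in counts, 10.5% higher and 10.4% lower against GFP and 14.6% higher and 15.3% lower against WT. Of 16 COPII coat genes tested, 2 rose and 4 fell in counts against GFP, and 0 rose and 5 fell against WT. SEC24A and MIA3 rose against GFP, while SAR1A, the GTPase that starts the coat, fell by 0.55 (limma adjusted p = 0.00425), SEC23B fell by 0.54 (limma adjusted p = 0.00441), and SEC13 and SEC24B fell. Those that fell against WT were SAR1A, SEC23B, SEC24B, SEC24D and SEC31A. The median log2 change of the 16 was -0.10 against GFP and -0.13 against WT, beside 0.00087 and -0.01 for all genes.

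Of 16 COPI coat genes, 0 rose and 3 fell against GFP, namely COPB1 by 0.55 (limma adjusted p = 0.00208), COPB2 by 0.48 and COPZ1 by 0.39. The same 3 fell against WT, where COPE and ARFGAP1 rose. The COPI calls were near the 20.9% and 29.9% of all genes called in these comparisons. The median log2 change of the 16 was -0.18 against GFP and -0.19 against WT. In summed TPM limma called 0 of 15 COPII and 0 of 15 COPI genes in each comparison. Beside this, 6.93% of all genes were called against GFP, 11.5% against WT and 0% in GFP against WT. Against GFP the TPM difference was -0.85 for SAR1A (limma adjusted p = 0.0509), -0.27 for SEC23B and -0.11 for SEC13. It was -0.12 for COPB1, -0.19 for COPB2 and -0.10 for COPZ1.

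Of 19 other cargo receptors, 1 rose and 4 fell against GFP, beside 20.9% of all genes called in either direction. LMAN1, a lectin receptor for glycoproteins, rose by 0.46, and WLS, the carrier of Wnt proteins, fell by 0.73 (limma adjusted p = 0.00116), CNIH4 by 0.68 (limma adjusted p = 0.00180), ERGIC3 by 0.49 and LMAN2L by 0.42. Against WT 0 rose and 3 fell, namely CNIH4, LMAN2L and KDELR3, beside 29.9% of all genes called. In GFP against WT counts of WLS rose by 0.54 (limma adjusted p = 0.0247), and the difference between RBMXL3 and WT was -0.19. Among 6 genes that remodel or attach GPI anchors, PGAP1, which encodes an inositol deacylase, rose in counts by 0.73 against GFP (limma adjusted p = 0.00314) and by 0.44 against WT, and no other passed. The TPM difference of PGAP1 was 0.26 against GFP (limma adjusted p = 0.487) and -0.17 against WT. Those of WLS and CNIH4 against GFP were -0.42 and -0.50. In TPM limma called 0 of the 19 receptors and 0 of the 6 GPI anchor genes in each comparison. Beside this, 6.93% of all genes were called against GFP and 11.5% against WT. Of 10 genes tested of the Toll-like receptor 4 arm, TRAF6 was the 1 called in counts, where it fell against GFP by 0.35 and against WT by 0.44, a smaller share than the 20.9% and 29.9% of all genes. In TPM, TRAF3 fell against WT by 0.73 (limma adjusted p = 0.0379), as 1 of 9 tested, near the 11.5% of all genes called there. Without 1 of the RBMXL3 libraries the calls against GFP of SAR1A, COPB1 and PGAP1 (without RBMXL3 2) and of SEC23B, SEC13, COPB2, COPZ1, ERGIC3 and TRAF6 (without either) were lost, while WLS and CNIH4 kept theirs against GFP (-0.81 to -0.64 and -0.73 to -0.64). The call of SEC13 against GFP was also lost without WT 1, WT 2 or GFP 1 (-0.59 to -0.22), and that of TRAF6 without WT 1, WT 2 or GFP 2 (-0.37 to -0.33), with edgeR (adjusted p = 0.0513), with DESeq2 (adjusted p = 0.113), with no filter and with the replicate block. Against WT, leaving out 1 library gave 2 to 7 COPII calls, 2 to 10 COPI calls, 0 to 5 calls of other cargo receptors, and 0 to 2 calls in each of the last 2 lists. The call of PGAP1 against WT was lost without either WT or either RBMXL3 library, and the list of other cargo receptors, CNIH4 included, had 0 calls against WT without either RBMXL3 library or without WT 2.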

How the data were processed

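Polyadenylated RNA of 6 TCam-2 libraries was prepared with a stranded mRNA kit, per the labels' protocols. Per the submitters' processing notes, the tools were Trim Galore 0.6.10, STAR 2.7.11a, Salmon 1.10.2 and DESeq2, with GRCh38; the read counter, annotation and strand setting are not given in the sources used here. CPM is in the name of the deposited gene table, which holds a normalised signal instead: the authors divided whole read counts by 1 size factor per library, since 100% of 145320 nonzero values came out whole (tolerance 0.01). The deposited transcript table holds TPM made by the authors with Salmon and keeps no depth. Of 251955 transcripts, 80.0% matched GENCODE 29 by identifier without version, with 94.7% to 95.1% of TPM. All 9 member identifiers have newer versions in the files, so lengths and exons may differ from those used. Columns of no sample numbered 0.

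Gene values were divided by 23.9 so that the mean column total is that of CPM, since the planned test assumed CPM. Features reaching 1 in 2 or more libraries were tested as log2(value + 1), which understates changes of low genes, with limma 3.58.1 (R 4.3.3), in 1 two-sided fit of 6 libraries, with calls where the p after Benjamini-Hochberg adjustment was under 0.05. An intensity trend was used except for the gap, log2(count + 1) minus log2(TPM + 1). Means and SDs are over n = 2. Alternatives were edgeR 4.0.16 and DESeq2 1.42.0 on recovered reads, other pseudocounts, filters and scaling, single libraries left out and a replicate block. The fits were tested on simulated data. Members and lists were chosen with earlier results of these data known. Named were all members, the TMED7 locus, transcripts with at least 5 TPM, the 5 genes nearest to TMED7 and at most 3 called genes a list; other called list genes, and the opposite-strand genes CCDC18 and DNM2, were named after their values were seen.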

Additional observations from a re-analysis of the deposited data

How the results depend on the processing

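Counts of called members moved with the filter, the scaling and single libraries. In gene counts, RBMXL3 against GFP gave 2 calls, and 1 with no filter; RBMXL3 against WT gave 1, and 2 after quantile normalization; GFP against WT gave 1, 0 with no filter and 2 with DESeq2. Summed TPM in RBMXL3 against WT gave 1, 0 with no filter, 2 with a mean of at least 5, 2 after quantile normalization and 3 with protein-coding transcripts alone. The gap against GFP gave 3, and 0 after quantile normalization. Transcripts gave 0, and 1 against GFP and 1 against WT with a mean of at least 5. Leaving out 1 library gave 1 to 3 calls in counts against GFP, 1 to 3 against WT and 0 to 5 in GFP against WT, 0 to 2 in TPM against WT, 0 to 1 for the gap against GFP, and 0 to 2 for transcripts against GFP and 0 to 2 against WT. The TMED5 TPM difference against GFP changed sign, to -0.49, with protein-coding transcripts alone. Small uncalled differences changed sign under some alternative in 1 of 8 members for counts against GFP (TMED2), in 3 of 8 for counts against WT (TMED4, TMED8 and TMED10) and in 5 of 8 for TPM against GFP (TMED2, TMED3, TMED5, TMED9 and TMED10). The causes were not tested. Whole-table calls in counts fell from 2986 to 950 with no filter against GFP, and to 840 and 658 without RBMXL3 1 and RBMXL3 2. Whole-table TPM calls against WT fell from 1638 to 11 and 23 without those libraries. Of the tested log2 changes of named genes under an alternative, 231 kept direction and side of the threshold, 68 lost the threshold, 8 gained it and 1 changed sign. Of those of TMED7, which has no test, 61 moved by less than 1 SE and 9 by more.

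Same-numbered libraries did not deviate together (correlations of -0.16, 0.03 and -0.09), and the main fit did not pair them. With 1 difference per group, these correlations cannot exclude that same-numbered libraries shared a culture or preparation, which the labels do not state. With the replicate block, 1 member was called in counts against GFP, 0 in TPM against WT and 0 in the gap against GFP, where the whole table also had 0 calls. With 2 libraries a group, TPM without depth and 261 to 426 normalised reads for TMED7 in controls, the depth and the number of libraries limit the precision of each value.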
